A study of Mus musculus with 8 samples.

Results

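The expression of 10 genes of glycolysis and of the hypoxia response was examined in the aortas of ApoE-/- and WT mice. The genes were chosen by name: the oxygen-regulated subunit Hif1a, the glucose transporter Slc2a1, the hexokinases Hk1, Hk2 and Hk3, the regulatory enzyme Pfkfb3, the glycolytic enzymes Pgk1, Pkm and Ldha, and the growth factor Vegfa. All 10 were among the 21859 genes with counts, and all 10 passed the low-count filter that left 15077 genes for testing. Whole aortas of 4 male ApoE-/- mice were compared with those of 4 male WT mice on the C57BL/6 background, 1 library of stranded, ribodepleted total RNA per mouse. All 8 mice were 40 weeks old and had received a normal chow diet, so that genotype was the factor that separated the groups. ApoE-/- mice lack apolipoprotein E in every cell from conception, accumulate cholesterol-rich lipoproteins in the blood and develop atherosclerotic plaques. Between 23240995 and 23940156 read pairs were counted on genes in ApoE-/- mice and between 18375898 and 21664598 in WT mice. Expression is given as TMM-normalized counts per 1000000 read pairs on tested genes (CPM).

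In glycolysis, glucose enters the cell through transporters, is trapped by hexokinases as glucose 6-phosphate and is broken down to pyruvate, which lactate dehydrogenase can turn into lactate. When oxygen is scarce, HIF-1α escapes hydroxylation and degradation, pairs with ARNT and raises the transcription of most of these genes and of Vegfa. HIF-1α is controlled to a large extent at the protein level, so that its mRNA is not a measure of its activity. In plaques, activated macrophages are known for high glucose uptake and glycolytic flux.

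The deleted gene was checked first: Apoe was at 25.2 ± 10.7 CPM (SD, n = 4) in ApoE-/- mice and at 717 ± 145 CPM (SD, n = 4) in WT mice. Contractile smooth muscle markers were present in every mouse (summed level of 10 genes, 5559 to 22977 CPM) and so were endothelial markers (10 genes, 1701 to 3021 CPM). ApoE-/- mouse 1 stood apart: its summed level of 7 sympathetic neuron markers was 3217 CPM, against 6.91 to 210.1 CPM in the other ApoE-/- mice and 117 to 529 CPM in WT mice, and its smooth muscle sum was the lowest of the 8 mice. The values of the 10 genes and the medians of gene lists are therefore given with and without this mouse. The libraries also differed by genotype without overlap: 32.3% to 35.6% of all pairs lay on genes in ApoE-/- mice and 27.9% to 30.2% in WT mice, and mitochondrial genes held 2.84% to 5.16% and 5.52% to 6.92% of the pairs on genes. The part of this difference in the results was not tested. In whole tissue, fewer cells of a type and less RNA per cell cannot be told apart.

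None of the 10 genes passed an adjusted p of 0.05 with edgeR's quasi-likelihood test, where 0.464% of all tested genes did. With an unadjusted p below 0.05 there were 3 genes, Hk3, Hif1a and Slc2a1, each with the higher mean in ApoE-/- mice, against 7.19% of all tested genes in that direction (11.4% in either). DESeq2 on the same counts called 1 of the 10, Hk3, as higher, and 3.12% of all tested genes in that direction (4.81% in either). The log2 fold change was positive for 7 genes and negative for 3, with a median of 0.28, beside 0.05 over all tested genes. Without ApoE-/- mouse 1 the median was -0.11, and edgeR called 2 genes as higher, Hif1a and Hk3, where it called 2.75% of all tested genes in that direction (3.91% in either). In DESeq2 without this mouse, 4 of the 10 were called, Hif1a, Slc2a1 and Hk3 as higher and Pfkfb3 as lower, beside 10.3% of all tested genes. Leaving it out also left 3 genes higher without overlap, Hif1a, Slc2a1 and Hk3, beside 9.82% of all tested genes.

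**Figure D1:**
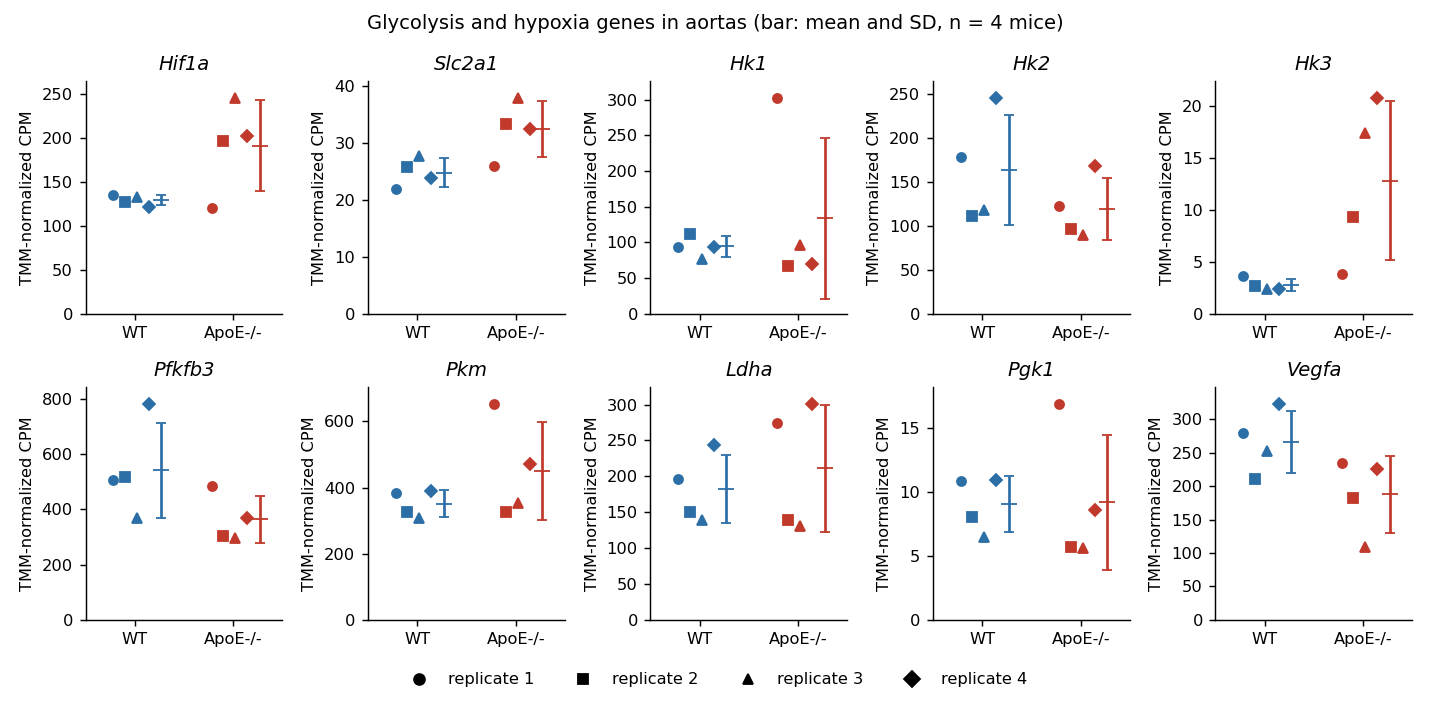
TMM-normalized CPM of each of the 10 genes (y axes, linear, from 0) in WT and ApoE-/- aortas. Symbols are single mice, the horizontal tick is the mean and the bar the SD (n = 4). Hk3 is the only gene of the 10 whose genotypes did not overlap, and ApoE-/- mouse 1 (circle) has the highest value of Hk1, Pkm and Pgk1.

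The promoters of 4 genes are shown here because these genes differ in their pattern over the mice. Hk2, Ldha and Pgk1 shared their 4 highest mice, which came from both genotypes and were the 4 highest for 9.18% of all tested genes. Pkm shared these mice as well and is not printed. Hk3 was higher in all ApoE-/- mice than in any WT mouse, as were 5.41% of all tested genes. HIF-1 binds the core motif ACGTG or GCGTG, which was searched on both strands in the 250 bases upstream of each RefSeq start site (GRCm38.p6). The sequences run 5′ to 3′ on the strand of the gene. Capitals mark the core on either strand. The run CACGTG holds the core on both strands, counts as 2 matches and is also the E-box read by MYC and other factors. The windows lie at chr6:82774455-82774704 (Hk2, minus strand), chr13:55021386-55021635 (Hk3, minus strand), chr7:46845554-46845803 (Ldha, plus strand, inside the annotated gene but in no exon) and chrX:106186850-106187099 (Pgk1, plus strand).
Hk2: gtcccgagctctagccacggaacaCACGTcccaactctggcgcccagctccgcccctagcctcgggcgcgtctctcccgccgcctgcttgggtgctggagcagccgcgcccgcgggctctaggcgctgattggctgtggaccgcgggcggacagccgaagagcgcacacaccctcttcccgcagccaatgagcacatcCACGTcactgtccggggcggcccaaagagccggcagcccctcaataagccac
Hk3: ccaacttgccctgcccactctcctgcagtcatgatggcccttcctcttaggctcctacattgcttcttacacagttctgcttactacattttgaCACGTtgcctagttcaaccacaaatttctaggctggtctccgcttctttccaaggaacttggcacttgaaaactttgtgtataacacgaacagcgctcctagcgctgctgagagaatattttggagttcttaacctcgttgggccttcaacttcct
Ldha: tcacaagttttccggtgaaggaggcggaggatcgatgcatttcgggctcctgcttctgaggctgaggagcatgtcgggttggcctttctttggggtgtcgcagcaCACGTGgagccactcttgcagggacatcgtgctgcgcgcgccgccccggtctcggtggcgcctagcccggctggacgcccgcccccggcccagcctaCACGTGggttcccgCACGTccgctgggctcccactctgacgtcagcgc
Pgk1: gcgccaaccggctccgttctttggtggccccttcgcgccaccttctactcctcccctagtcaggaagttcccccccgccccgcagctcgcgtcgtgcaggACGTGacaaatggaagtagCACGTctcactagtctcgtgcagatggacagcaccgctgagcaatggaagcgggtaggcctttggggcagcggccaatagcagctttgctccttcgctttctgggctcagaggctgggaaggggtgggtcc

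The Hk2 window held 2 matches, at 226 and 52 bases upstream, and the Hk3 window held 1, at 156 bases. The Ldha window held 5 matches, of which 4 formed CACGTG runs, while the window of a second RefSeq start site (not printed) held 1, and Pgk1 held 2, at 150 and 131 bases. Over all start sites of the 10 genes, 12 of 15 windows held at least 1 match, and each gene had at least 1 such window. Among all 32851 RefSeq windows of this length the share was 38.6%. For Hk1, Pkm and Vegfa, the window of the most upstream start site held 0 matches. Their matches lay only in the window of a further start site inside the gene. Exons covered 121 bases of that window for Hk1, 140 for Pkm and 218 for Vegfa. A match is a description of the sequence and no measure of binding.

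Hif1a, which encodes the oxygen-regulated subunit of HIF-1, lies on chromosome 12 (73901375 to 73947530, plus strand, GRCm38) with 15 exons in its longest transcript. The predicted gene Gm49321 overlaps it on the same strand and was at 0 counts in every library. It was at 121, 197, 245 and 203 CPM in ApoE-/- mice 1 to 4 and at 135, 128, 133 and 122 CPM in WT mice 1 to 4. The WT mice lay close together, while ApoE-/- mice 2 to 4 were above all of them and ApoE-/- mouse 1 was below all of them. The means were 191 ± 52.0 and 129 ± 6.08 CPM (SD, n = 4), a log2 fold change of 0.56 with a standard error of 0.20 (adjusted p = 0.300 in edgeR and 0.166 in DESeq2). Without ApoE-/- mouse 1, the log2 fold change was 0.73 with a standard error of 0.11 (adjusted p = 0.0147 in edgeR), and DESeq2 gave an adjusted p of 9.70e-08. Over the fits that left out 1 mouse each, the edgeR adjusted p ran from 0.0147 to 0.623.

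Of the 10 other HIF subunits and oxygen sensors examined, none was called by edgeR or DESeq2, and their median log2 fold change was 0.03 (-0.02 without ApoE-/- mouse 1). Epas1, which encodes HIF-2α and is abundant in endothelium, was at 542 ± 97.6 CPM in ApoE-/- mice and at 696 ± 52.4 CPM in WT mice (log2 fold change -0.36, adjusted p = 0.477 in edgeR). Cited2, a HIF-induced competitor for the coactivator p300, was at 21.4 ± 3.91 and 29.0 ± 4.86 CPM (log2 fold change -0.44, adjusted p = 0.353 in edgeR). Arnt, the shared partner of HIF-1α and HIF-2α, had a log2 fold change of -0.19 (edgeR adjusted p = 0.782). The means of Hif1a and Epas1 therefore stood in opposite order between genotypes, although neither difference passed the test in all 8 mice. The oxygen-sensing prolyl hydroxylases Egln1, Egln2 and Egln3 and the ubiquitin ligase subunit Vhl had log2 fold changes of 0.03, 0.04, 0.21 and 0.03. The prolyl hydroxylases and Vhl were chosen after their values were seen.

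Slc2a1 encodes GLUT1, the basal glucose transporter of many cell types (chromosome 4, 119108711 to 119137983, plus strand). It was at 26.0, 33.4, 37.9 and 32.5 CPM in ApoE-/- mice and at 21.9, 25.7, 27.8 and 23.9 CPM in WT mice. ApoE-/- mice 2 to 4 were again above all WT mice, and ApoE-/- mouse 1 fell within their range. The log2 fold change was 0.38 with a standard error of 0.14 (adjusted p = 0.302 in edgeR and 0.231 in DESeq2). Without ApoE-/- mouse 1 it was 0.48 with a standard error of 0.12 (adjusted p = 0.0648 in edgeR), and DESeq2 gave an adjusted p of 0.00896. Hif1a and Slc2a1 shared their highest mouse, ApoE-/- mouse 3.

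Of 10 other glucose transporters, 9 were tested and none was called by edgeR, with a median log2 fold change of 0.10 (-0.25 without ApoE-/- mouse 1). DESeq2 gave no adjusted p for 2 of them, Slc2a3 and Slc2a6, and called none of the others. Slc2a6 was at 23.3 CPM in ApoE-/- mouse 1 and between 2.93 and 5.94 CPM in the other 7 mice, and its log2 fold change of 0.92 became -0.36 without that mouse. Slc2a3, or GLUT3, which is known from neurons, was at 155 CPM in ApoE-/- mouse 1 and at 7.39 to 40.9 CPM elsewhere. Slc2a2 (log2 fold change -0.83, adjusted p = 0.439 in edgeR) was below 1 CPM in every mouse, and Slc2a12 had a log2 fold change of -0.32 (edgeR adjusted p = 0.732). Slc2a4, the insulin-responsive GLUT4 of muscle and fat, was at 97.0 ± 36.5 CPM in ApoE-/- mice and at 103 ± 33.9 CPM in WT mice. Slc2a3 and Slc2a4 were chosen after their values were seen.

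The 3 hexokinases, which carry out the first step of glycolysis, each followed a different order over the mice. Hk3, a hexokinase of myeloid cells, was the one gene of the 10 whose genotypes did not overlap; 5.41% of all tested genes were higher in ApoE-/- mice without overlap. It lies on chromosome 13 (55005985 to 55021385, minus strand) and overlaps Unc5a on the opposite strand, from which a stranded library tells it apart. It was at 3.82, 9.31, 17.4 and 20.7 CPM in ApoE-/- mice and at 3.58, 2.67, 2.38 and 2.39 CPM in WT mice. These levels rested on 43 to 478 read pairs per mouse. ApoE-/- mouse 1 was barely above the highest WT mouse, and ApoE-/- mouse 4 was the highest of all. The ratio of the means was 4.65, and the log2 fold change was 2.21 with a standard error of 0.49 (adjusted p = 0.0944 in edgeR and 0.000498 in DESeq2). Without ApoE-/- mouse 1 it was 2.52 with a standard error of 0.29 (adjusted p = 0.00767 in edgeR and 1.78e-12 in DESeq2). Over the 8 fits that left out 1 mouse each, the log2 fold change ran from 1.88 to 2.52 and the edgeR adjusted p from 0.00767 to 0.280.

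Macrophage markers moved with Hk3 in ApoE-/- mice. The summed level of 12 macrophage markers was 533, 1022, 1207 and 2211 CPM in ApoE-/- mice 1 to 4 and 511, 431, 433 and 491 CPM in WT mice 1 to 4. The 4 ApoE-/- mice fell in the same order for Hk3 and for the marker sum, with mouse 4 highest and mouse 1 lowest. The 4 WT mice did not: WT mouse 1 was the highest of them for both, but the lowest was WT mouse 3 for Hk3 and WT mouse 2 for the marker sum. All 12 markers had positive log2 fold changes, 11 without overlap, 2 were called by edgeR and 8 by DESeq2. Per 1000 CPM of macrophage markers, Hk3 was at 7.16, 9.12, 14.4 and 9.39 CPM in ApoE-/- mice and at 7.01, 6.19, 5.51 and 4.88 CPM in WT mice. The lowest ApoE-/- ratio lay just above the highest WT ratio, but this rested on Mertk, the 1 marker that overlapped between genotypes: without it the ratios ran from 8.15 to 16.9 CPM in ApoE-/- mice and from 6.64 to 9.26 CPM in WT mice, with overlap. The sum of 8 neutrophil markers was 8.35 to 19.5 CPM in ApoE-/- mice and 3.32 to 4.31 CPM in WT mice. Of the 3 that were tested, DESeq2 called Csf3r and S100a9 as higher, while Elane had a log2 fold change of -0.44. Retnlg, Ly6g, Ngp and Elane overlapped between genotypes. No marker of either list was at 0 in all libraries. The part of either cell type in the Hk3 difference was not tested. The tested genes whose profile over the 8 mice came closest to that of Hk3 were Cd84 (root mean square difference of centred log2 CPM, 0.160), Msr1, the scavenger receptor A (0.172), and C3ar1, the receptor for complement C3a (0.201).

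Hk1, the hexokinase of brain, red cells and many other tissues, lies on chromosome 10 (62268855 to 62379908, minus strand). It was at 302, 67.0, 95.9 and 69.4 CPM in ApoE-/- mice and at 93.9, 112, 77.3 and 93.6 CPM in WT mice. ApoE-/- mouse 1 was far above the other 7 mice, and ApoE-/- mice 2 and 4 were the lowest. Its log2 fold change was 0.50 with a standard error of 0.49 (adjusted p = 0.802 in edgeR) and turned to -0.28 with a standard error of 0.17 (adjusted p = 0.440 in edgeR) without ApoE-/- mouse 1. The sympathetic neuron sum had the same highest mice, ApoE-/- mouse 1 and WT mouse 2, and the same lowest mice, WT mouse 3 and ApoE-/- mice 4 and 2. The median log2 fold change of the 7 neuron markers was 1.30 with ApoE-/- mouse 1 and -2.02 without it. edgeR called none of them, DESeq2 gave no adjusted p for 6, and none was at 0 in all libraries. The part of these cells in the level of Hk1 was not tested. The nearest profiles over the 8 mice were those of Snap47 (root mean square difference 0.0597), Ncdn (0.0774) and Apbb1 (0.0868), all of them genes known from neurons.

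Hk2, the hexokinase of insulin-responsive tissues such as muscle and fat, lies on chromosome 6 (82725025 to 82774454, minus strand). It was at 122, 96.0, 89.6 and 168 CPM in ApoE-/- mice and at 178, 112, 118 and 245 CPM in WT mice. The genotypes overlapped, with WT mouse 4 highest and ApoE-/- mouse 3 lowest. The difference on the log2 scale was -0.46 with a standard error of 0.30 (adjusted p = 0.691 in edgeR), and -0.47 with a standard error of 0.34 (adjusted p = 0.522 in edgeR) without ApoE-/- mouse 1. Leaving out WT mouse 4 gave -0.19 (edgeR adjusted p = 0.940). The summed level of 8 adipocyte markers was 4846, 2801, 1795 and 8333 CPM in ApoE-/- mice and at 5775, 3467, 3804 and 8428 CPM in WT mice. Its 4 highest mice, WT mice 4 and 1 and ApoE-/- mice 4 and 1, were also the 4 highest for Hk2. Of the 8 adipocyte markers, 7 had negative log2 fold changes, none was called, and none was at 0 in all libraries. The part of adipocytes in the level of Hk2 was not tested.

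**Figure D2:**
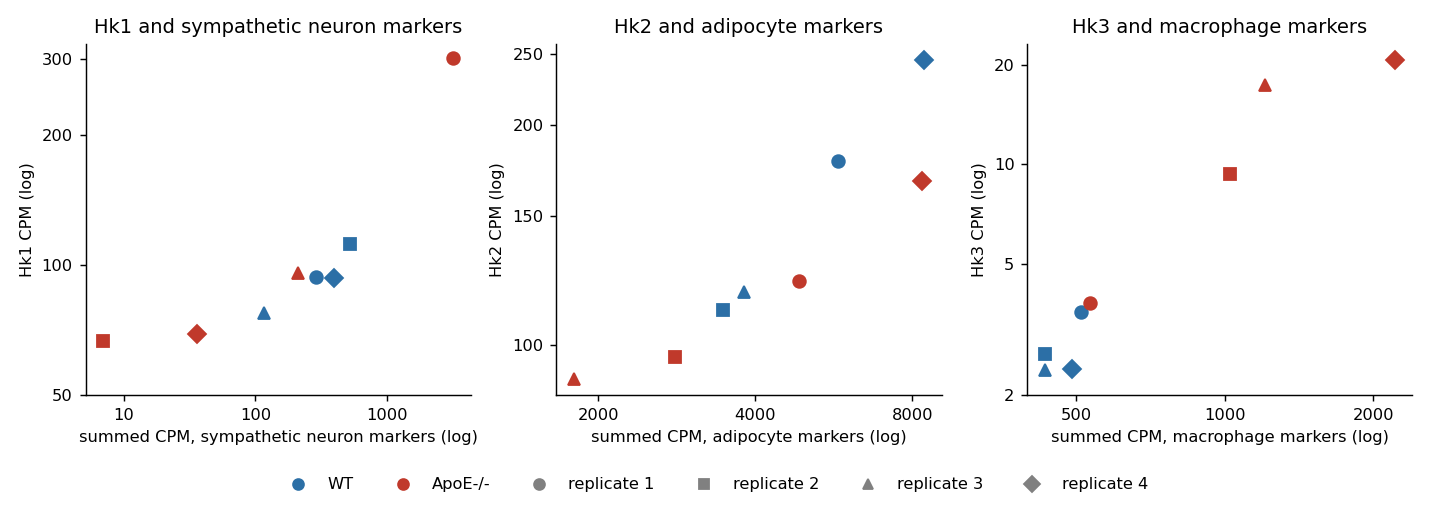
CPM of Hk1, Hk2 and Hk3 (y axes, log scale) against the summed CPM of sympathetic neuron, adipocyte and macrophage markers (x axes, log scale) in the 8 mice, colored by genotype with 1 symbol per replicate number. Each hexokinase is plotted against a different list, chosen after the orders were seen: Hk1 reaches 302 CPM where the neuron sum is 3217 CPM, Hk2 reaches 245 CPM where the adipocyte sum is 8428 CPM, and Hk3 reaches 20.7 CPM where the macrophage sum is 2211 CPM.

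Per kilobase of merged exons, Hk2 made up most of the hexokinase mRNA in WT aortas. Its share was 71.4%, 57.4%, 67.1% and 78.0% in WT mice 1 to 4 and 36.0%, 60.8%, 48.5% and 67.1% in ApoE-/- mice 1 to 4. Hk1 held 20.8% to 40.3% in WT mice and 19.4% to 62.2% in ApoE-/- mice, the upper end in mouse 1. The Hk3 share was 2.32%, 2.23%, 2.19% and 1.23% in WT mice and 1.82%, 9.56%, 15.3% and 13.5% in ApoE-/- mice. With the length of the longest transcript in place of merged exons, Hk2 held 42.8% to 66.3% in WT mice, with 42.8% in WT mouse 2 beside 55.4% for Hk1, and the mean shares in ApoE-/- mice were 50.01% ± 18.7 for Hk1 and 41.6% ± 14.6 for Hk2 (SD, n = 4). With either length, all 3 shares overlapped between the genotypes, for Hk3 through ApoE-/- mouse 1 alone.

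**Figure D3:**
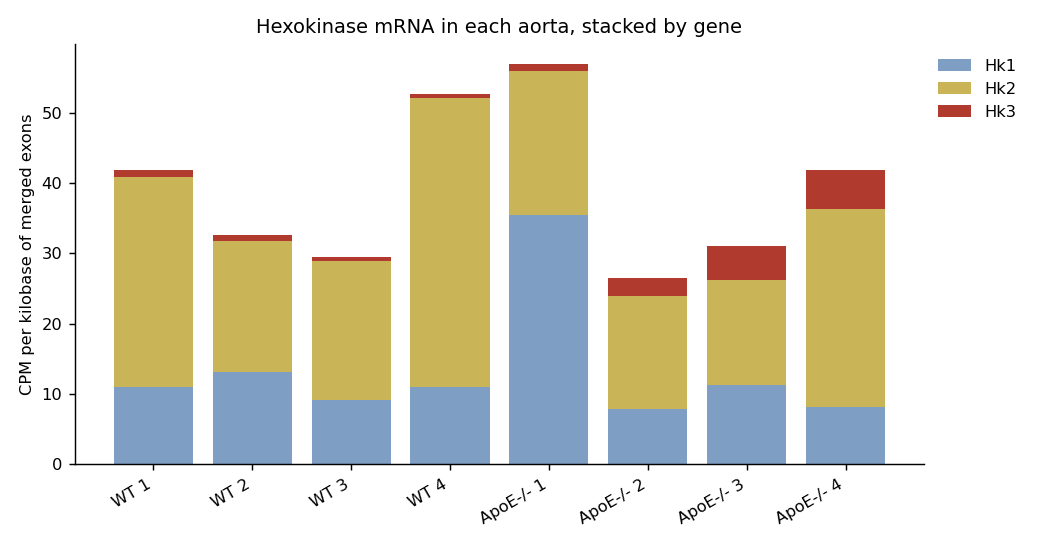
CPM per kilobase of merged exons of Hk1, Hk2 and Hk3 (y axis, stacked bars from 0) in each of the 8 aortas (x axis). Hk3 is 1.23% to 2.32% of the stack in WT mice and 9.56% to 15.3% in ApoE-/- mice 2 to 4, and Hk1 is 62.2% of it in ApoE-/- mouse 1.

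Pfkfb3 makes fructose 2,6-bisphosphate, the main activator of phosphofructokinase, and lies on chromosome 2 (11471433 to 11554077, minus strand). It was at 484, 305, 296 and 370.0 CPM in ApoE-/- mice and at 505, 516, 369 and 781 CPM in WT mice. All ApoE-/- mice were below 3 of the 4 WT mice, and WT mouse 3 lay among them. For Pfkfb3 the log2 fold change was -0.58 with a standard error of 0.26 (adjusted p = 0.469 in edgeR and 0.257 in DESeq2). Without ApoE-/- mouse 1 it was -0.75 (SE 0.25), with an adjusted p of 0.156 in edgeR and 0.0372 in DESeq2, while without WT mouse 4 it was -0.35 (edgeR adjusted p = 0.859).

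Its paralog Pfkfb4 stood in the opposite order, at 19.8, 14.4, 19.1 and 17.7 CPM in ApoE-/- mice and at 11.98, 12.7, 13.2 and 9.43 CPM in WT mice, without overlap. The log2 fold change of Pfkfb4 was 0.59 with a standard error of 0.15 (adjusted p = 0.137 in edgeR), and it rose by DESeq2 (adjusted p = 0.0193). The liver and muscle form Pfkfb1 had a log2 fold change of -0.50 (edgeR adjusted p = 0.503). Tigar, a fructose 2,6-bisphosphatase induced by p53, had a log2 fold change of 0.36 that turned to -0.13 without ApoE-/- mouse 1.

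Pgk1, Pkm and Ldha carry out later steps of glycolysis, and neither edgeR nor DESeq2 called any of the 3. Pkm, pyruvate kinase of muscle and most other tissues (chromosome 9, 59656368 to 59679375, plus strand), was at 651, 327, 354 and 472 CPM in ApoE-/- mice and at 383, 327, 307 and 391 CPM in WT mice. ApoE-/- mice 1 and 4 were the highest and the others mixed with WT mice. Its log2 fold change was 0.36 with a standard error of 0.23 (adjusted p = 0.679 in edgeR), and 0.13 with a standard error of 0.17 (adjusted p = 0.775 in edgeR) without ApoE-/- mouse 1. These counts add up the PKM1 and PKM2 splice forms.

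Ldha, which turns pyruvate into lactate, lies on chromosome 7 (46841475 to 46855627, plus strand). It was at 274, 139, 131 and 300.1 CPM in ApoE-/- mice and at 197, 151, 139 and 243 CPM in WT mice. ApoE-/- mice held both the 2 highest and the 2 lowest values. The difference on the log2 scale was 0.21 with a standard error of 0.32 (adjusted p = 0.873 in edgeR), 0.06 without ApoE-/- mouse 1 and -0.01 without ApoE-/- mouse 4.

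Pgk1, the first ATP-producing enzyme of the pathway, lies on chromosome X (106187100 to 106203699, plus strand). It was at 16.8, 5.73, 5.62 and 8.55 CPM in ApoE-/- mice and at 10.8, 8.004, 6.48 and 10.96 CPM in WT mice. The means were 9.19 ± 5.28 and 9.07 ± 2.20 CPM (SD, n = 4), with a log2 fold change of 0.02 with a standard error of 0.38 (adjusted p = 0.996 in edgeR) that turned to -0.45 with a standard error of 0.25 (adjusted p = 0.385 in edgeR) without ApoE-/- mouse 1. Of the 50-base stretches in Pgk1 transcripts, 53.9% also occur in transcripts of other genes, among them the copy Pgk1-rs7, and only uniquely aligned pairs were counted. The share was 25.8% for Pkm, 9.26% for Ldha, 5.74% for Hif1a and at most 1.54% for the other 6 genes. The levels of Pgk1 and Pkm are therefore uncertain. For Pkm, part of the share is with Gm49759, which overlaps it on the same strand, and stretches from the same place in the genome can still align uniquely. The Hif1a share is with Gm15283 and Gm49321, which overlap Hif1a. How many pairs were lost was not tested. The nearest profiles to that of Pgk1 were those of Qdpr (root mean square difference 0.104), Isoc1 (0.132) and Tdrp (0.138).

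Hk2, Pkm, Ldha and Pgk1 shared their 4 highest mice, WT mice 1 and 4 and ApoE-/- mice 1 and 4, which were also the 4 highest for the adipocyte sum. The same held for 6 of the 15 other glycolytic enzymes tested (Gpi1, Pfkl, Aldoa, Tpi1, Eno1 and Ldhb) and for 9.18% of all tested genes. This grouping was noticed after the values were seen, is given without a test, and crosses the genotypes. It holds the mice numbered 1 and 4 of both genotypes, so replicate number and adipocyte sum cannot be told apart in it. The labels do not say whether the number stands for a shared handling.

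The other glycolytic enzymes numbered 18, of which 15 were tested, 8 with positive and 7 with negative log2 fold changes and a median of 0.01, which was -0.37 without ApoE-/- mouse 1. Neither edgeR nor DESeq2 called any of them. The share of 50-base stretches also found in transcripts of other genes was 36.2% for Pgam1, 26.0% for Eno1, 25.1% for Gapdh, 21.0% for Ldhb and 15.8% for Gpi1. Their levels are therefore uncertain too, and these genes were chosen after their values were seen. Pgam2, the muscle phosphoglycerate mutase, was at 2.87 ± 0.982 CPM in ApoE-/- mice and at 4.998 ± 1.11 CPM in WT mice (log2 fold change -0.80, standard error 0.27, adjusted p = 0.277 in edgeR), and it passed without ApoE-/- mouse 1 (log2 fold change -1.07, adjusted p = 0.0426 in edgeR). Eno3, the muscle enolase, had a log2 fold change of -0.30 (edgeR adjusted p = 0.503). Of the 8 cardiac muscle markers, Ryr2 had similar means (235 and 238 CPM) and made up most of the sum in ApoE-/- mice. The other 7 summed to 20.3 to 119 CPM in ApoE-/- mice and 207 to 467 CPM in WT mice, each lower without overlap, with log2 fold changes from -4.06 to -1.73, and DESeq2 called 5. The 10 skeletal muscle markers summed to 14.1 to 36.1 CPM in ApoE-/- mice and 18.5 to 33.0 CPM in WT mice, with overlap, and their median log2 fold change was 0.08 (0.07 without ApoE-/- mouse 1). Of the 9 tested, 5 had positive and 4 negative log2 fold changes. DESeq2 called 1, Ckm, as lower (log2 fold change -1.54 in edgeR, adjusted p = 0.00927 in DESeq2), at 2.82 ± 1.36 CPM in ApoE-/- and 8.19 ± 2.39 CPM in WT mice, without overlap. The part of muscle in the levels of Pgam2 and Eno3 was not tested. The brain forms Aldoc and Eno2 followed the sympathetic neuron sum in the order of all 8 mice: Aldoc was at 59.9 CPM and Eno2 at 247 CPM in ApoE-/- mouse 1, and they were at 0.787 and 15.9 CPM in ApoE-/- mouse 2, the lowest mouse for both. Aldoc and Eno2 were chosen after their values were seen.

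Of 12 genes of pyruvate entry into mitochondria, 9 had negative log2 fold changes, with a median of -0.12 (-0.25 without ApoE-/- mouse 1), and edgeR called none. Pdp2, a phosphatase that activates pyruvate dehydrogenase, was at 65.4, 64.8, 41.5 and 72.4 CPM in ApoE-/- mice and at 98.2, 80.1, 107 and 119.5 CPM in WT mice. The genotypes did not overlap, and Pdp2 had a log2 fold change of -0.73 with a standard error of 0.19 (adjusted p = 0.148 in edgeR and 0.0135 in DESeq2). Mpc1, a subunit of the mitochondrial pyruvate carrier (-0.59, edgeR adjusted p = 0.405), and Pdk4, a kinase that inhibits pyruvate dehydrogenase and is induced by fasting (-0.64, edgeR adjusted p = 0.536), had negative log2 fold changes as well.

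Of the 5 genes of lactate transport, none was called, and their median log2 fold change was 0.09 (0.08 without ApoE-/- mouse 1). Slc16a3, the lactate exporter MCT4 and a known HIF-1 target, was at 13.7 ± 1.93 CPM in ApoE-/- mice and at 9.88 ± 1.79 CPM in WT mice (log2 fold change 0.47, adjusted p = 0.310 in edgeR). Emb, a chaperone of monocarboxylate transporters, had a log2 fold change of 0.46 (edgeR adjusted p = 0.567) and Slc16a1, or MCT1, one of -0.42 (edgeR adjusted p = 0.836). The 7 pentose phosphate genes had a median of 0.13 (0.017 without ApoE-/- mouse 1) and none was called; G6pdx, the enzyme of the first step, had a log2 fold change of 0.22, Pgd one of 0.26 and Rpe one of -0.18.

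**Figure D4:**
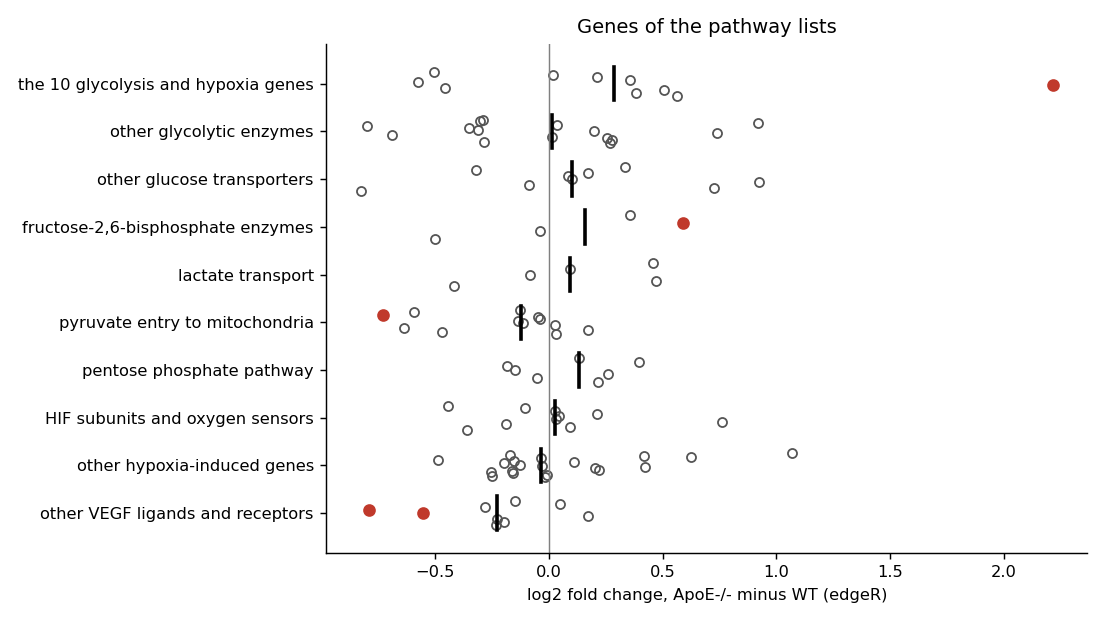
edgeR log2 fold change, ApoE-/- minus WT (x axis), of each tested gene in the 10 examined genes and in 9 lists of related genes (y axis). Circles are genes, filled red where the genotypes did not overlap, and black bars are list medians, which lie between -0.23 and 0.28.

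Vegfa, the main endothelial growth factor induced by HIF, lies on chromosome 17 (46016993 to 46032369, minus strand). It was at 234, 182, 109 and 225 CPM in ApoE-/- mice and at 279, 211, 252 and 322 CPM in WT mice. WT mouse 2 lay within the ApoE-/- range and the other WT mice above it. For Vegfa the log2 fold change was -0.51 with a standard error of 0.25 (adjusted p = 0.526 in edgeR and 0.371 in DESeq2), and -0.63 with a standard error of 0.25 (adjusted p = 0.236 in edgeR) without ApoE-/- mouse 1. Leaving out ApoE-/- mouse 3 gave -0.32 (edgeR adjusted p = 0.620). ApoE-/- mouse 3, which had the highest Hif1a and Slc2a1, had the lowest Vegfa of the 8 mice.

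Flt1 and Kdr, the tyrosine kinase receptors of VEGF-A, had lower values in all ApoE-/- mice than in any WT mouse, and they passed in DESeq2 but not in edgeR. Flt1, or VEGFR1, was at 179, 162, 172 and 146 CPM in ApoE-/- mice and at 213, 228, 251 and 274 CPM in WT mice (log2 fold change -0.55, standard error 0.12, adjusted p = 0.0936 in edgeR and 0.000260 in DESeq2). Kdr, or VEGFR2, the main signalling receptor of endothelium, was at 186, 113, 115 and 118 CPM in ApoE-/- mice and at 222, 215, 211 and 271 CPM in WT mice (log2 fold change -0.79, standard error 0.19, adjusted p = 0.115 in edgeR and 0.00247 in DESeq2). Both passed in edgeR without ApoE-/- mouse 1, with an adjusted p of 0.0453 for Flt1 and 0.00829 for Kdr. Among all 9 VEGF ligands and receptors other than Vegfa, 7 had negative log2 fold changes, with a median of -0.23 (-0.21 without ApoE-/- mouse 1), and Flt4, the lymphatic receptor, had one of -0.28 (edgeR adjusted p = 0.495). The VEGF-A co-receptors Nrp1 and Nrp2, chosen after their values were seen, overlapped between genotypes, with log2 fold changes of 0.05 and -0.15. The 10 endothelial markers summed to 1701, 2057, 2080 and 2710.2 CPM in ApoE-/- mice and at 2506, 3021, 2865 and 2585 CPM in WT mice. In 9 of 10 the log2 fold change was negative, with a median of -0.36 (-0.27 without ApoE-/- mouse 1), and DESeq2 called 3 of them lower. The part of endothelial cell content in the values of Flt1 and Kdr was not tested.

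The 20 other genes known to be induced by hypoxia had a median log2 fold change of -0.03 with or without ApoE-/- mouse 1, 7 positive and 13 negative over all mice, and neither edgeR nor DESeq2 called any. Lox, a collagen crosslinking enzyme, was at 63.1, 256, 285 and 252 CPM in ApoE-/- mice and at 97.8, 78.7, 136 and 96.7 CPM in WT mice. ApoE-/- mice 2 to 4 were above all WT mice and ApoE-/- mouse 1 was below all of them, as for Hif1a. The log2 fold change of Lox was 1.07 with a standard error of 0.43 (adjusted p = 0.377 in edgeR) and 1.37 with a standard error of 0.18 (adjusted p = 0.00907 in edgeR) without ApoE-/- mouse 1. Adm, or adrenomedullin, had a log2 fold change of -0.26 (edgeR adjusted p = 0.655). The widely used hypoxia markers Car9, Bnip3, Ndrg1 and Ddit4, chosen after their values were seen, had log2 fold changes of -0.02, -0.25, -0.16 and -0.03. Plod2, Tfrc, P4ha1 and P4ha2 of the same list, chosen in the same way, had 0.42, 0.42, 0.22 and 0.20.

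Over all 9 lists of related genes, 91 of 95 were tested, and edgeR called none of them. DESeq2 called 4, with Pfkfb4 higher and Pdp2, Flt1 and Kdr lower (4.81% of all tested genes), which were also the 4 without overlap between genotypes, beside 8.71% of all tested genes without overlap in either direction. Without ApoE-/- mouse 1, edgeR called 4 as well (3.91% of all tested genes), with Lox higher and Pgam2, Flt1 and Kdr lower.

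**Figure D5:**
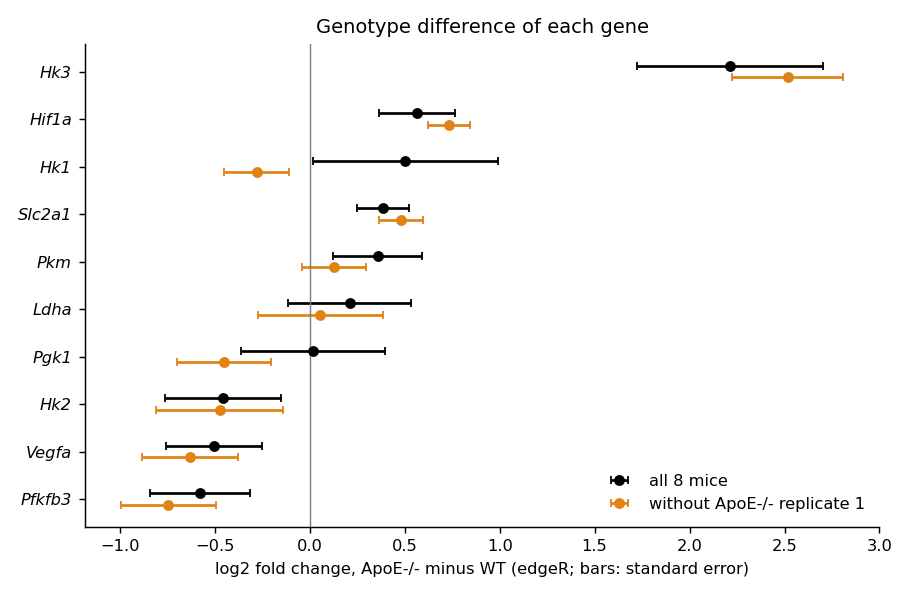
edgeR log2 fold change, ApoE-/- minus WT (x axis), of each of the 10 genes (y axis) over all 8 mice (black) and without ApoE-/- mouse 1 (orange). Bars are 1 standard error. Hk1 changes from 0.50 to -0.28 and Pgk1 from 0.02 to -0.45. Hif1a, Slc2a1 and Hk3 above 0 and Pfkfb3 and Vegfa below 0 move away from 0. Hk2 stays near its value, and Pkm and Ldha move toward 0.

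Per kilobase of merged exons, the 10 genes spanned a wide range of levels in WT aortas. Pfkfb3 was at 71.8 ± 22.8 CPM per kilobase (SD, n = 4), Pkm at 70.3 ± 8.29, Vegfa at 62.1 ± 10.9 and Ldha at 55.1 ± 14.3. Each of these 4 differed from its neighbour in this order by less than the larger SD. Hk2 followed at 27.4 ± 10.5 and Hif1a at 21.95 ± 1.03, again within the SD of Hk2, then Hk1 at 11.04 ± 1.66 and Slc2a1 at 7.08 ± 0.722. Pgk1 was at 4.04 ± 0.980 and Hk3 at 0.748 ± 0.153 CPM per kilobase. In ApoE-/- aortas Pkm was first at 90.2 ± 29.5, followed by Ldha at 63.8 ± 26.8 and Pfkfb3 at 48.1 ± 11.5. Hif1a was at 32.4 ± 8.81. Hk3 had the lowest mean, 3.48 ± 2.09, within the SD of Pgk1 at 4.09 ± 2.35. In ApoE-/- mice 1 and 2 Hk3 was below Pgk1, at 1.04 and 2.53 against 7.51 and 2.55. In ApoE-/- mice 3 and 4 it was above Pgk1, at 4.73 and 5.63 against 2.50 and 3.81. With the length of the longest transcript in place of merged exons, 4 genes changed rank in WT mice and Pkm came first.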

How the data were processed

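RNA was sequenced from whole aortas of 8 mice, 4 per genotype, after saline perfusion of fasted animals. For each mouse, the authors deposited a table of gene-level counts, in read pairs, without normalization. The submitters' processing notes name TopHat2, HTSeq, mm10 and GRCm38, and only pairs aligned uniquely were counted. Versions are not given in the sources used here. Pairs on no gene (50.1% to 54.7% of all pairs in ApoE-/- mice and 56.4% to 58.0% in WT mice), on an ambiguous gene (0.850% to 1.32%) or not aligned uniquely (11.8% to 14.3%) were left out of library sizes.

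Genes were filtered with filterByExpr, scaled by TMM and tested with the quasi-likelihood F test (robust) of edgeR 4.0.16 in R 4.3.3, two-sided, with genotype as the factor and Benjamini-Hochberg adjustment over 15077 genes at a threshold of 0.05. The SE is the size of the log2 fold change divided by the square root of F. DESeq2 1.42.0, limma-voom (limma 3.58.1), other scalings and filters, a block for the replicate number, and fits without each mouse in turn were alternatives. The pipeline was tested on simulated data. Mice of the same number in the 2 genotypes are different animals. Coordinates and exons are from GENCODE M21 (GRCm38), matched by 21817 of 21859 gene identifiers without versions, and promoters from RefSeq. Where a symbol had several entries, the one with the most counts was used.

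The genes named were the 10 genes, Apoe, the 3 genes with the smallest edgeR p in each list of related genes, and, for the 3 of the 10 with the largest SD of log2 CPM (prior count 2), the 3 genes with the nearest profile. Some genes that this rule names are not reported here. Any other gene is named as chosen after its values were seen or belongs to a marker list. The genes and lists were chosen with earlier results of these data known.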

Additional observations from a re-analysis of the deposited data

Results flagged for a closer look

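Among 50 groups of 4 mice examined, 5 held a mouse whose gap to its nearest neighbour, as a share of the range, was above Dixon's critical value for 4 samples. Chance flags about 1 in 20 groups, or 2.5 here. Hk1 in ApoE-/- mouse 1, at 302 CPM, had a gap of 0.877 of the range. The sympathetic neuron marker sum in the same mouse, at 3217 CPM, had a gap of 0.937. The cardiac muscle marker sum was low in ApoE-/- mouse 4, at 156 CPM, with a gap of 0.969; Ryr2 made up 123 CPM of it, and without Ryr2 the sum was 32.2 CPM, above the 20.3 CPM of ApoE-/- mouse 2. The Hk3 share of hexokinase mRNA per kilobase was low in WT mouse 4, at 1.23%, with a gap of 0.882. The total of all read pairs was low in ApoE-/- mouse 4, at 67231818, with a gap of 0.835.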

How the results depend on the processing

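The number of genes called, 70 in edgeR, was 725 in DESeq2, 29 in limma-voom, 2 with the replicate number as a block and 1562 in DESeq2 without ApoE-/- mouse 1, and it ranged from 0 to 593 when 1 mouse was left out, with 593 without ApoE-/- mouse 1 and 0 without ApoE-/- mouse 3, WT mouse 2 or WT mouse 4. Of the 10 genes, 0 were called in edgeR, with 3 at an unadjusted p below 0.05; 1 was called in DESeq2, 4 in DESeq2 without ApoE-/- mouse 1 (10.3% of all tested genes), and 0 to 2 when 1 mouse was left out. Of the related genes, 0 were called in edgeR, with 10 of 91 at an unadjusted p below 0.05 (11.4% of all tested genes), 4 in DESeq2, 9 in DESeq2 without ApoE-/- mouse 1, and 0 to 4 when 1 mouse was left out. The DESeq2 fit without ApoE-/- mouse 1 was added after seeing the data.

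Log2 fold changes reversed without ApoE-/- mouse 1, to -0.28 in edgeR and -0.29 in DESeq2 for Hk1, to -0.45 and -0.46 for Pgk1, to -0.36 and -0.37 for Slc2a6 and to -0.13 and -0.14 for Tigar. Leaving out 1 mouse at a time, edgeR gave -0.28 to 0.73 for Hk1, -0.45 to 0.19 for Pgk1, -0.36 to 1.21 for Slc2a6, -0.13 to 0.51 for Tigar and -0.0092 to 0.38 for Ldha, whose lowest value came without ApoE-/- mouse 4. Pgk1 also reversed to -0.10 in limma-voom and under the replicate block, to -0.038 with upper-quartile factors and without WT mouse 2, and to -0.11 without WT mouse 3. The cause was not tested. Of the values of 37 genes under all alternatives, 592 kept their direction and side of the threshold, 22 came to pass it and 14 reversed. Same-numbered mice had deviations that correlated at 0.06, -0.45, 0.32 and 0.16, and other pairs of mice at -0.67 to 0.67. These values cannot tell whether mice of the same number were handled together, which was not tested. The replicate block called none of the 10 genes. Under it the standard error was 0.11 for Hk2, 0.15 for Ldha and 0.59 for Hk3, beside 0.30, 0.32 and 0.49 in the main fit. The smallest counts among the 10 genes were those of Hk3, at 43 to 478 pairs per mouse, and Pgk1, at 117 to 415.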
